A study of Mus musculus with 51 samples.

Results

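The expression of 9 regulators of cardiac and lateral mesoderm, *Hand1*, *Hand2*, *Isl1*, *Foxf1*, *Gata4*, *Gata6*, *Nkx2-5*, *Mef2c* and *Pdgfra*, was followed in mouse embryonic stem cells (mESCs) differentiating in response to Bmp4 and in cells lacking *Smad4*, *Eomes* or *T*. The genes were taken by symbol, without use of their values, and all 9 were found among the 24538 genes of each of 9 deposited expression tables. Samples of F1G4 wild-type (WT) cells represent the ES state and days 1, 2 and 3. *Eomes* KO, *T* KO and *Eomes*/*T* double KO (dKO) cells were sampled on days 2 and 3, and *Smad4* KO cells on days 1 and 2 beside WT cells of their own line. All differentiated cells, WT cells included, had received 20 ng/ml Bmp4. Double-nicking CRISPR/Cas9 in F1G4 cells, which removed the promoter and first exon of the gene, gave the *Eomes* KO and the *T* KO line, and the dKO line was made from the *Eomes* KO line. The *Smad4* KO line came from conditional mESCs of a 129S/SvEv and C57BL/6 background, in which transient Cre excised the floxed first exon. Single clones were picked, so that a KO line may carry differences of its clone, and the *Smad4* line, its WT cells included, is of other origin than F1G4. How its strain compares with that of F1G4 was not established here.

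Bmp4 acts through receptors that phosphorylate Smad1/5, which enter the nucleus together with Smad4. Eomes and T (brachyury) are T-box transcription factors of the primitive streak, from which mesoderm emerges, and Mesp1 marks the earliest cardiac mesoderm. Hand1 and Hand2 are bHLH factors of lateral mesoderm and heart, and Hand1 is also made in extra-embryonic mesoderm and trophoblast. Isl1 is a LIM-homeodomain factor of cardiac progenitors. Foxf1 is a forkhead factor of lateral and extra-embryonic mesoderm downstream of BMP signalling. Gata4 and Gata6 are zinc-finger factors of heart and endoderm, Nkx2-5 is a homeodomain factor and Mef2c a MADS-box factor of the committed heart, and Pdgfra is a receptor for PDGF ligands carried by mesoderm and by primitive endoderm.

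In the mm10 annotation *Hand1* lies at chr11:57828713-57832147, *Isl1* at chr13:116298270-116309688, *Mef2c* at chr13:83504017-83667079, *Pdgfra* at chr5:75151322-75198206, *Gata4* at chr14:63198914-63271712 and *Nkx2-5* at chr17:26838664-26844988. *Hand2* (chr8:57320983-57324517) and *Foxf1* (chr8:121084386-121088154) lie on the same chromosome. RefSeq promoters (GRCm38.p6, 250 bases before to 50 after the start of a transcript) were at hand for 5 of the 9 genes, *Hand2*, *Isl1*, *Nkx2-5*, *Mef2c* and *Pdgfra*. The promoters of *Isl1* (chr13:116309639-116309938, minus strand) and *Pdgfra* (chr5:75152001-75152300, plus strand) are shown because both genes were lower on day 3 in all 3 KO lines made from F1G4. Capitals mark matches to the motifs searched on both strands.
Isl1: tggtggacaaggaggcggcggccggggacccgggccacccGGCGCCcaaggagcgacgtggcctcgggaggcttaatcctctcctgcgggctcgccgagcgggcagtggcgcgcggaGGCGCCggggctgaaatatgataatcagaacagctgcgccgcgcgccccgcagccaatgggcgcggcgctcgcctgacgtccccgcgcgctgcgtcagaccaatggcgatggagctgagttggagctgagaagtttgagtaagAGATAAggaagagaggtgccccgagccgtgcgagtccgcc
Pdgfra: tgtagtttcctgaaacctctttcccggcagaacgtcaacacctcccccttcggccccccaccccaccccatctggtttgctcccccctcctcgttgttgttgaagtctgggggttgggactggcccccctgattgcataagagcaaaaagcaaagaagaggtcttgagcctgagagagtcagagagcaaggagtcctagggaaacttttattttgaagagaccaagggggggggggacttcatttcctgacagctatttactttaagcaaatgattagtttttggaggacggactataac
The motifs were the T-box sequence TCACACCT, its shorter form TCACAC, which is contained in it, the SMAD sequence GGCGCC, the Tcf/Lef sequence CTTTGA and the GATA sequence AGATAA. They occurred in 1.28%, 14.5%, 11.9%, 16.0% and 11.2% of 32851 promoters, respectively. The *Isl1* window held GGCGCC at −210 and −133 and AGATAA at 11 bases from the start, and the *Pdgfra* window held none of the 5. Its GC content was 51%, against 69% for *Isl1*. *Hand2* held GGCGCC at −78 and AGATAA at −172, *Nkx2-5* held CTTTGA at −184, and among the windows of *Mef2c* 1 held TCACAC at −131 and another CTTTGA at 35. A match is a description of the letters only.

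The deposited values are FPKM, fragments per kilobase of transcript scaled to library size, with 1 column per condition. Low values came in steps of 1 fragment, from which the libraries behind the columns could be read. Each of the 10 columns of KO cells and of the *Smad4* line was a single library, of 18.1 to 37.4 M fragments, and each F1G4 WT column was the mean of 2 libraries, of 21.8 to 29.0 M fragments. The labels give 1 sample for each KO line and day, while legends of the study speak of averaged replicates for such values. For days 2 and 3 the WT libraries could be separated for 24512 genes, since the same mean stands in 4 tables with different weights. They are called a (the deeper) and b of each day, and neither letter could be tied to a replicate number or to the other day. A gene was called DE by the rule of the study, FPKM above 1 in either column and a log2 ratio beyond 1 in either direction. The rule is a threshold and not a test, and nothing in the labels tells whether the WT libraries of a stage are separate cultures. Set against each other, the WT libraries of day 2 differed beyond this threshold for 7.32% of genes, and those of day 3 for 10.4%. The cells carried streak markers, with *T* at 351 and 288 FPKM and *Mesp1* at 6.40 and 4.50 in the WT libraries a and b of day 3, whereas 10 structural genes of cardiomyocytes summed to 12.2 and 5.32. The targeted genes were lower in their own lines: *Eomes* stood at 0.276 in *Eomes* KO cells and 20.3 in WT on day 3, and *T* at 3.00 in *T* KO cells and 323 in WT. On day 2 *Eomes* was at 2.42 in *Eomes* KO cells and 9.42 in WT, *T* at 6.64 in *T* KO cells and 44.8 in WT, and in the dKO *Eomes* was at 1.24 beside 9.40 and *T* at 2.77 beside 43.0. Gene-level *Smad4* was 39.4 and 46.8 in *Smad4* KO cells against 33.8 and 39.3 in WT on days 1 and 2, which checks nothing as only the first exon was deleted. The day 3 *Eomes* KO and day 2 *T* KO libraries stood apart, with the largest shares of DE genes (16.4% and 15.6%), and across 11010 genes their log2 ratios correlated at r = 0.52, against 0.20 and 0.23 for either line with its own other day and 0.56 for the dKO. Other pairs of lines across the days ranged from r = 0.095, for the dKO of day 2 and the *Eomes* KO of day 3, to 0.56, for the *Eomes* KO of day 2 and the dKO of day 3. The 2 sides of each pair share no WT column, and the genes are not independent replicates.

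In WT cells *Hand1* was the most abundant of the 9 genes, and most others had not reached FPKM 1 by day 3. *Hand1* stood at 0.121 FPKM in the ES state and at 1.18, 8.66 and 20.5 on days 1, 2 and 3. It was DE at each step, with a log2 ratio of 3.29 on day 1 against the ES state, 2.87 on day 2 against day 1 and 1.24 on day 3 against day 2. No other member was DE on day 1 or day 2, when 13.5% and 11.3% of genes were DE against the stage before. On day 3 *Isl1* (log2 3.56) and *Pdgfra* (3.02) joined *Hand1*, so that all 3 members that passed the FPKM minimum were DE, against a background of 10.2%. The same 3 were DE between day 3 and the ES state, against 31.1% of genes. As DE needs FPKM above 1, these counts speak only of the few members that reached it. *Isl1* and *Pdgfra* passed the minimum only through day 3, where they were high, which favours a DE call. *Hand1* passed it only through the later stage in comparisons with the ES state. The counts are therefore not comparable with the shares of all genes.

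**Figure D1:**
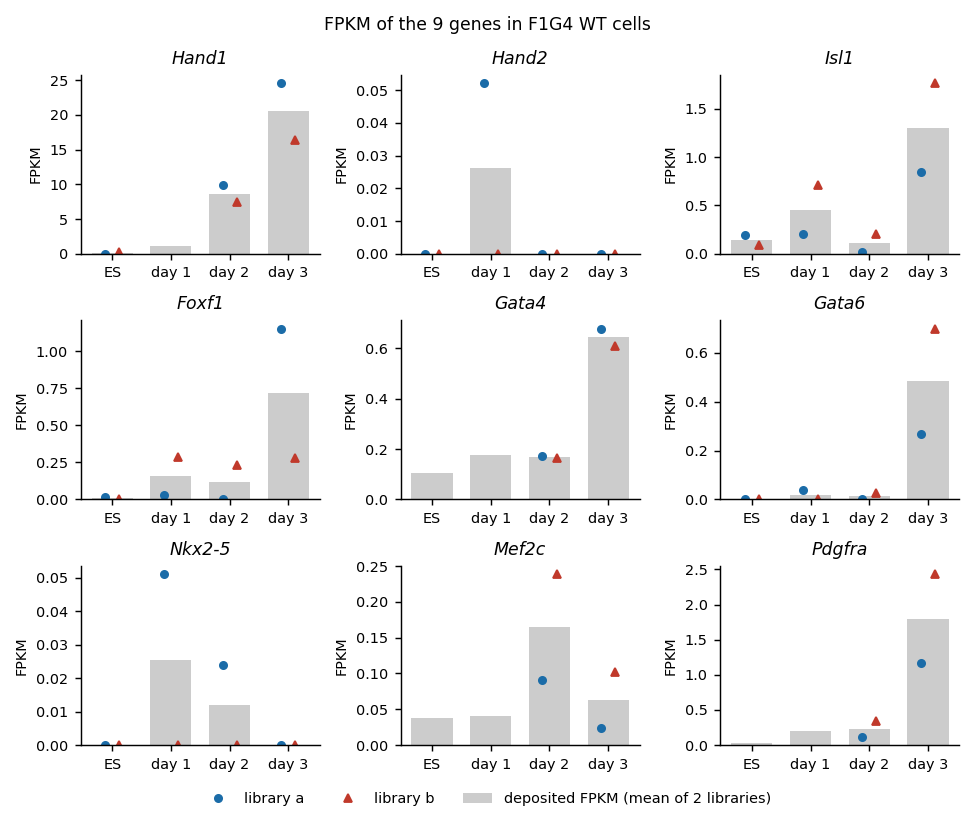
FPKM (linear axes from 0) of the 9 genes at 4 stages of F1G4 WT cells. Grey bars are deposited means of 2 libraries, and circles and triangles are libraries a and b where they could be separated. *Hand1* reached 20.5 on day 3, *Isl1*, *Foxf1* and *Pdgfra* differed clearly between the libraries of day 3, and *Hand2* and *Nkx2-5* were at 0 in both.

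The separate libraries showed that day 3 levels were not equally firm for all members. *Hand1* was at 24.6 and 16.4 FPKM in libraries a and b of day 3 and at 9.84 and 7.48 in those of day 2, so the days did not overlap. *Isl1* was at 0.847 and 1.77 on day 3 (62 and 118 fragments) and at 0.0144 and 0.207 on day 2 (1 and 13 fragments), likewise without overlap. *Pdgfra* was at 1.17 and 2.43 on day 3 and at 0.108 and 0.335 on day 2. All 3 were thus higher in both libraries of day 3 than in both of day 2. *Foxf1* was at 1.15 and 0.281 on day 3 (81 and 18 fragments), a 4.10-fold difference between libraries of the same stage, and at 0 and 0.232 on day 2. *Foxf1* was the member on which the WT libraries of day 3 differed most among those above FPKM 1 in either. With *Isl1* and *Pdgfra*, 3 of the 4 members tested differed beyond 2-fold between these libraries, *Foxf1* being higher in a and the other 2 in b. Among 36 other genes of the cardiac and lateral mesoderm programme, 3 were higher beyond 2-fold in a and 1 in b, and of 13 trophoblast and amnion genes, whose sum was 2085 in a and 1015 in b, 2 were higher in a. Of these *Cdx2* was at 14.1 in a and 0.494 in b, and the other was the keratin gene *Krt8*. Keratins weigh heavily in the sum of this list. In WT of day 1 *Krt18* was at 80.7 and *Krt8* at 37.6, where the whole list summed to 129. What part trophoblast or amnion cells or their RNA had in the difference of *Foxf1* was not tested, and in bulk samples fewer cells of a type and less RNA per cell cannot be told apart.

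*Gata4* was the most even of the low members, with 0.678 and 0.611 FPKM on day 3 (67 and 55 fragments) and 0.170 and 0.165 on day 2. *Gata6*, on chromosome 18, was at 0.270 and 0.699 on day 3 (25 and 59 fragments) and at 0 and 0.0252 on day 2 (0 and 2 fragments). Both were higher in each library of day 3 than in either of day 2, although below the FPKM minimum. *Mef2c* did not follow them, with 0.0911 and 0.238 on day 2 and 0.0231 and 0.101 on day 3. *Hand2* and *Nkx2-5* had no fragment in either library of day 3, which allows, at 3 fragments per library and for counting error only, up to 0.0462 and 0.0508 FPKM for *Hand2* and 0.0678 and 0.0744 FPKM for *Nkx2-5* in libraries a and b.

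A test of day 3 against day 2 was made with limma on log2(FPKM + 0.1) over the 4 WT and 6 KO libraries of these days. The lone KO libraries were assumed to vary like the WT pairs, which gave 2 residual degrees of freedom, and p-values measure only the spread between these WT libraries, which may be technical. By this test 0% of 12304 genes were called at an adjusted p under 0.05, although 1547 had an unadjusted p under 0.05. Limma gave *Hand1* a log2 difference of 1.22 (95% confidence interval 0.48 to 1.95, adjusted p = 0.241), *Isl1* 2.83 (1.01 to 4.64, adjusted p = 0.252) and *Pdgfra* 2.57 (0.95 to 4.20, adjusted p = 0.248). For *Foxf1* the limma difference was 1.92 (−0.34 to 4.18, adjusted p = 0.461), an interval that includes 0. With genes down to FPKM 0.1 admitted (16432 genes), *Gata4* had a limma difference of 1.47 (0.97 to 1.98, adjusted p = 0.299).

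Smad4 is the partner through which receptor-activated Smads reach most of their targets, and the *Smad4* KO asks which members need it. On day 1 *Hand1* had 87 fragments (1.94 FPKM) in WT cells of the *Smad4* line and 23 (0.507 FPKM) in the KO, a log2 ratio of −1.94. On day 2 it had 234 (3.50 FPKM) and 8 (0.122 FPKM), a log2 ratio of −4.84. The 95% Poisson intervals did not overlap on either day, at 0.322 to 0.761 in KO and 1.55 to 2.39 in WT on day 1 and 0.0527 to 0.240 and 3.07 to 3.98 on day 2. With 1 library per condition there is no replicate check, and these intervals cover counting error only. *Hand1* was the single DE member on either day, of 2 above the FPKM minimum, against 4.77% of all genes on day 1 and 5.77% on day 2. *Hand1* passed the minimum only through WT.

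**Figure D2:**
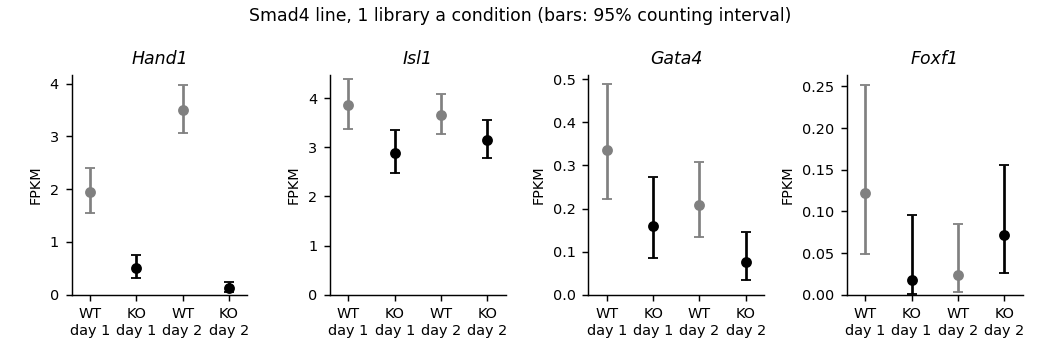
FPKM (linear axes from 0) of *Hand1*, *Isl1*, *Gata4* and *Foxf1* in 1 library each of WT (grey) and *Smad4* KO cells (black) on days 1 and 2, with 95% Poisson intervals of the fragment counts. *Hand1* stood at 3.50 in the WT library of day 2 and at 0.122 in its KO library, whereas the intervals of *Isl1* overlapped between WT and KO on that day.

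*Isl1* behaved otherwise. WT cells had 230 *Isl1* fragments on day 1 (3.85 FPKM) and KO cells 174 (2.88 FPKM), a log2 ratio of −0.42, and on day 2 the counts were 326 (3.66 FPKM) and 275 (3.15 FPKM), a log2 ratio of −0.22. The intervals, 3.28 to 4.08 in WT and 2.79 to 3.55 in KO, overlapped on day 2. On day 1 they met without overlap by a small margin, at 3.37 to 4.39 in WT and 2.47 to 3.35 in KO. For *Gata4*, day 1 WT cells had 27 fragments (0.335 FPKM) and KO cells 13 (0.160 FPKM), and day 2 cells had 25 (0.208 FPKM) and 9 (0.0764 FPKM). It was lower in KO cells on both days, below the FPKM minimum. *Foxf1* had 7 fragments in WT and 1 in KO on day 1 and 2 and 6 on day 2, and showed no common direction. *Hand2* had 7 and 2 fragments on day 1 and 2 and 0 on day 2, *Gata6* 4 and 2 and then 3 and 4, and *Nkx2-5* 1 and 0 and then 3 and 1. A difference in these 3 genes was not detectable at this depth. The level of *Mef2c* went from 0.106 FPKM in WT to 0.161 in KO cells of day 1, and from 0.264 to 0.0457 in those of day 2. *Pdgfra* was at 0.321 and 0.229 on day 1 and at 0.212 and 0.146 on day 2, whereas the PDGF ligand gene *Pdgfa* was DE on both days, with 7.36 FPKM in WT beside 1.48 in KO cells of day 1 and 9.73 beside 2.05 a day later.

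Around these members, WT cells of day 2 had *Eomes* at 24.8 and *T* at 26.6 FPKM, where *Smad4* KO cells had 1.73 and 0.891. Of the cardiac and lateral mesoderm programme, 4 of 10 genes above the FPKM minimum were DE and lower and 1 was higher on day 1, led by the homeobox genes *Msx2* (log2 −4.43) and *Msx1* (−3.78). On day 2, 5 of 11 were lower and 3 higher, with the growth factor gene *Fgf8* (log2 −7.01) among the lower. Markers of other cell types moved as well. Of the neuroectoderm list, 4 of 5 genes above the minimum were DE on day 1 and 3 of 5 on day 2, all higher in the KO, with *Pax6* at 10.4 beside 0.378 and *Sox1* at 3.58 beside 0.302 on day 2. Of the trophoblast and amnion list, 5 of 8 were DE on day 1 and 3 of 5 on day 2, all lower, with *Cdx2* at log2 −4.54 on day 1. *Eomes* is on this list and was among the lower genes on both days (log2 −1.61 and −3.84). Of the endoderm list, 0 of 6 and 1 of 6 were DE. The part of these in the member values was not tested. The median log2 ratio over all 9 members (pseudocount 0.1) was −0.41 on day 1 and −0.34 on day 2, beside −0.0045 and −0.0094 over all genes above the minimum. The day 1 median was the value of *Isl1*, which was not DE, and that of day 2 the value of *Pdgfra*. As 7 of the 9 members did not pass the minimum on either day, the medians show no fall of the members as a group.

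The WT cells of the *Smad4* line were not interchangeable with F1G4 WT cells for these genes. After scaling to a common median, *Isl1* was at 4.00 FPKM in the *Smad4* line and 0.456 in F1G4 on day 1, 8.77-fold higher, and at 3.69 and 0.111 on day 2, 33.4-fold higher. For *Hand1* the values were 2.01 and 1.18 on day 1, and 3.53 and 8.66 (log2 −1.30) a day later. *Isl1* on both days and *Hand1* on day 2 were DE, against 11.2% of genes on day 1 and 5.09% on day 2. *Isl1* passed the minimum only through the *Smad4* line. The lines are of separate origin and each *Smad4*-line condition is 1 library, so line and library cannot be told apart.

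The *Eomes* KO asks what the members do without this T-box factor. *T* was lower in these cells as well, at 22.3 FPKM beside 43.1 in WT on day 2 and 4.46 beside 334 on day 3. The loss of *Eomes* and the lower *T* cannot be told apart in this line. *Hand1* was lower than WT on day 2 and higher on day 3. On the scale of the time course it was at 1.73 FPKM in the KO on day 2 (92 fragments), beside 9.84 and 7.48 in the WT libraries, 4.33-fold below the nearer. On day 3 it was at 60.2 (2917 fragments), beside 24.6 and 16.4, 2.45-fold above the nearer. The level was therefore outside both WT libraries on both days, on opposite sides, and from day 2 to day 3 it went up 34.9-fold in the KO and 2.37-fold in WT. The log2 ratio to the WT mean was −2.33 on day 2, when *Hand1* was the single member above the FPKM minimum and 7.52% of genes were DE, and 1.56 on day 3. In limma the log2 difference from WT was −2.25 on day 2 (−3.15 to −1.35, adjusted p = 0.608) and 1.58 on day 3 (0.68 to 2.48, adjusted p = 0.159). No member was called by limma, which called 0.00813% of genes on day 2 and 0.0244% on day 3, so these differences did not pass the correction although their intervals left out 0.

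On day 3 all 4 members above the FPKM minimum were DE in *Eomes* KO cells, 2 higher and 2 lower, against 16.4% of all genes. *Isl1* and *Pdgfra* passed the minimum only through WT and *Foxf1* only through the KO, which favours a DE call. The count is therefore not comparable with that share. *Isl1* was at 0.450 FPKM (29 fragments), beside 0.847 and 1.77 in WT, 1.88-fold below the nearer library. *Pdgfra* was at 0.584, beside 1.17 and 2.43, 2.00-fold below the nearer. *Foxf1* was at 1.47 (91 fragments), beside 1.15 and 0.281, only 1.28-fold above library a. *Isl1* and *Pdgfra* were thus below both WT libraries and *Foxf1* just above both, and against library a alone *Hand1* and *Pdgfra* were DE, but *Isl1* and *Foxf1* were not. Limma gave *Isl1* −1.27 (−3.50 to 0.95, adjusted p = 0.494), *Foxf1* 1.19 (−1.59 to 3.96, adjusted p = 0.607) and *Pdgfra* −1.39 (−3.38 to 0.60, adjusted p = 0.419). *Foxf1* and *Hand2* lie on chromosome 8, whose genes were shifted by a median log2 of 0.21 in this comparison, and by 0.17 to 0.23 in the others of the F1G4 lines. The WT libraries of day 3 differed by 0.20 on this chromosome themselves, with b the higher. The part of this shift in the *Foxf1* values was not tested.

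**Figure D3:**
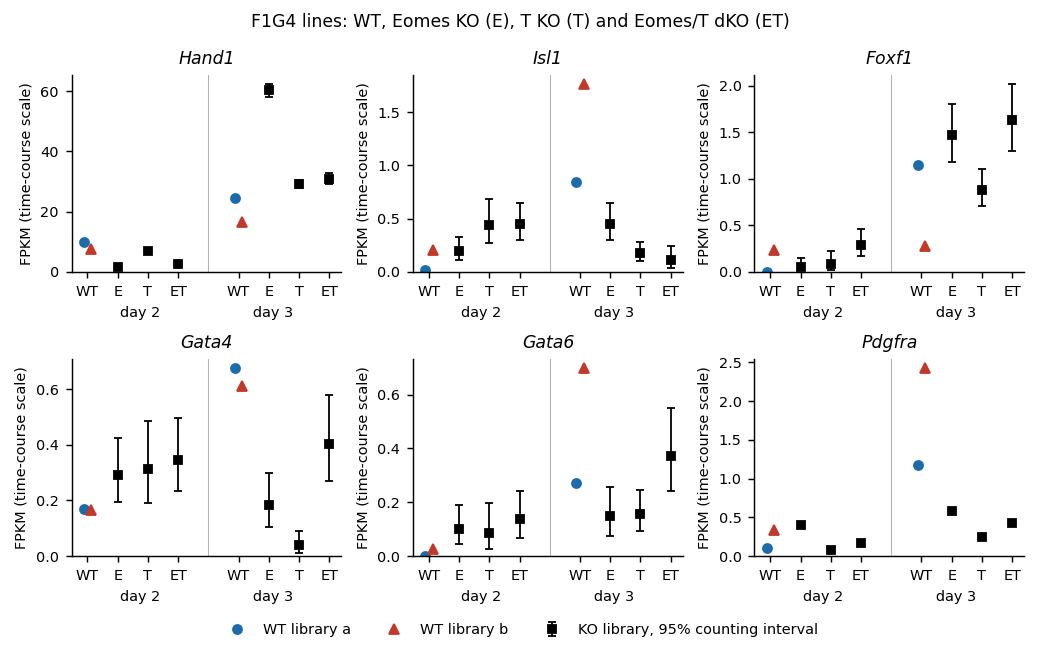
FPKM on the time-course scale (linear axes from 0) of 6 members on days 2 and 3 in WT libraries a and b, *Eomes* KO (E), *T* KO (T) and *Eomes*/*T* dKO (ET), with 95% Poisson intervals on KO libraries except for *Pdgfra*, whose transcripts of unequal length give no single count. *Hand1* reached 60.2 in the *Eomes* KO on day 3, and *Isl1* and *Pdgfra* were below both WT libraries in every KO line on that day.

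*Gata4* and *Gata6* stayed below the FPKM minimum. *Gata4* was at 0.293 in *Eomes* KO cells on day 2, above 0.170 and 0.165 in WT, and at 0.184 on day 3, below 0.678 and 0.611. *Gata6* was at 0.100 on day 2, beside 0 and 0.0252, and at 0.147 on day 3, beside 0.270 and 0.699. Both were above the WT libraries on day 2 and below them on day 3. *Mef2c* lay between the WT libraries on both days, and *Hand2* and *Nkx2-5* had at most 2 fragments. On day 2 *Isl1* (0.197, 14 fragments) and *Foxf1* (0.0588, 4 fragments) also lay between the WT libraries, and *Pdgfra* was at 0.395, 1.18-fold above the nearer. Other cell types were looked at beside these values. In the *Eomes* KO, 2 of 5 neuroectoderm genes above the minimum were DE on day 2, *Pax6* (log2 5.50) and *Sox1* (5.16), both higher. On day 3, 2 of 4 were DE, *Sox1* higher (4.85) and *Sox3* lower (−1.02). Of the endoderm list of 15 genes, whose *Sox17* did not pass 0.213 FPKM in any of the 10 libraries, *Ttr* was 0 in WT and at 1.20 and 1.06 in *Eomes* KO cells on days 2 and 3, and of the 7 genes above the minimum on day 3, 1 was DE and lower and 2 higher. The endoderm factor gene *Foxa2* was at 0.0757 in the *Eomes* KO of day 3, beside 4.01 and 4.99 in WT, whereas the collagen gene *Col4a1* was at 25.2, beside 12.3 and 11.4, and *Dab2* at 2.42, beside 1.48 and 1.08. The endoderm list's sum was 114 and 172 in the KO, beside 122 to 219 in the WT libraries of both days. The trophoblast and amnion list of 13 genes summed to 330 on day 2 and 1545 on day 3, beside 504 and 640, and 2085 and 1015, in WT. On day 3, 2 of its 9 genes above the FPKM minimum were DE and lower and 2 higher. The lower were *Eomes*, which is on the list and is the deleted gene itself, and *Cdx2* (log2 −4.11). In the *T* KO of day 3 *Cdx2* was lower as well (log2 −3.88), and the WT libraries of that day differed on it beyond 2-fold. *Plac1*, a placental gene, was at 9.56 in the *Eomes* KO, 4.36 in the *T* KO and 8.31 in the dKO of day 3, beside 1.51 and 1.59 in WT, and *Tfap2a* at 1.43 in the *Eomes* KO, beside 0.565 and 0.389. The placental markers *Cga* and *Elf5* were at 0 in the *Eomes* KO libraries, but also in all 4 WT libraries. The 12 fibroblast genes, as feeder cells would bring, summed to 3.90 and 10.4, beside 3.54 to 8.68 in WT. The part of any of these in the member values was not tested.

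Of the cardiac and lateral mesoderm programme around the members, on day 2 in *Eomes* KO cells, 1 of 11 genes above the minimum was lower and 2 were higher by the DE rule, with *Fgf8* at 2.38 in the KO and 13.6 in WT and *Msx2* at 10.5 and 3.24. On day 3, 7 of 15 were lower and 4 higher. *Mesp1* was listed at 0 in the KO beside 5.68 in WT, and *Fgf8* had a log2 ratio of −5.54. The median log2 ratio over the 9 members (pseudocount 0.1) was 0.21 on day 2 and 0 on day 3, beside −0.013 and −0.041 over all genes above the minimum. The day 2 median was the value of *Hand2*, from 1 fragment in the KO and none in WT. That of day 3 was the value of *Nkx2-5*, which had no fragment in either.

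The *T* KO asks the same of brachyury. On day 2 no member was DE, with 1 above the FPKM minimum, whereas 15.6% of all genes were. *Hand1* was at 6.80 FPKM (241 fragments), 1.10-fold below the lower WT library. *Isl1* was at 0.445 (21 fragments), beside 0.0144 and 0.207 in WT, 2.15-fold above the nearer, and stayed under FPKM 1. *Gata4* was at 0.314 (20 fragments), above both WT libraries, and *Gata6* at 0.0838 (5 fragments), likewise. *Mef2c* was at 0.0341 and *Pdgfra* at 0.0721, below both WT libraries by 2.67-fold and 1.50-fold from the nearer. *Foxf1* lay between them with 4 fragments, and *Hand2* and *Nkx2-5* had 2 each. All of these stood below FPKM 1. Limma gave *Hand1* −0.33 (−1.23 to 0.57, adjusted p = 0.680) and *Isl1* 1.54 (−0.69 to 3.77, adjusted p = 0.439), and called 1.03% of genes.

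On day 3 *Isl1* and *Pdgfra* were DE and lower, 2 of 3 members above the minimum, against 6.04% of genes. Both passed the minimum only through WT, so the count is not comparable with that share. *Isl1* was at 0.178 FPKM (17 fragments), beside 0.847 and 1.77 in WT, 4.75-fold below the nearer. *Pdgfra* was at 0.246, beside 1.17 and 2.43, also 4.75-fold below the nearer. Both differences from the nearer WT library exceeded the 2.09-fold and 2.08-fold gaps between the WT libraries. Limma gave *Isl1* −2.26 (−4.48 to −0.03, adjusted p = 1) and *Pdgfra* −2.37 (−4.36 to −0.38, adjusted p = 1), and called 0.0244% of genes, no member among them. Against library a alone *Pdgfra* was DE, while *Isl1* was not, as neither of its values then passed FPKM 1 (0.178 and 0.847).

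*Gata4* had the largest ratio of any member on day 3 in the *T* KO. It was at 0.0388 FPKM, from 5 fragments, beside 0.678 and 0.611 in WT (67 and 55 fragments), 15.7-fold below the nearer. In its own table the KO value was 0.0392 with a 95% Poisson interval of 0.0127 to 0.0916. Limma with genes down to FPKM 0.1 gave −2.42 (−3.04 to −1.80, adjusted p = 0.197). It does not count as DE, since no value passed FPKM 1. *Gata6* was at 0.158 (19 fragments), beside 0.270 and 0.699, 1.71-fold below the nearer. *Hand1* was at 29.3 (2097 fragments), 1.19-fold above the higher WT library, and *Foxf1* was at 0.884 (81 fragments), between the WT libraries. *Mef2c*, at 0.0424, lay between the WT libraries as well, *Hand2* had 2 fragments and *Nkx2-5* had 4, where WT had none. In this KO *Isl1*, *Pdgfra*, *Gata4* and *Gata6* thus lay below both WT libraries and *Hand1* and *Foxf1* did not, and the differences between genes were not tested.

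Of the programme, 6 of 13 genes were lower and 0 higher on day 3 in the *T* KO, with *Mesp1* listed at 0 beside 5.49 in WT and the homeodomain gene *Hopx* at 0.951 and 3.26. On day 2, 2 of 12 were lower and 4 higher, among them *Msx2* at 10.4 and 3.37. Over the 9 members the median log2 ratio was 0.58 on day 2 and −0.19 on day 3, beside −0.013 and −0.012 over all genes above the minimum. The day 2 median was the value of *Hand2*, from 2 fragments in the KO and none in WT, and shows no rise of the members as a group. The fibroblast sum was 6.25 on day 2 and 5.92 on day 3, the endoderm sum 63.7 and 205, mostly from *Sparc* (30.1 and 131), and the trophoblast and amnion sum 466 and 1742. Among neuroectoderm genes above the minimum, 1 of 4 was DE on day 2, *Sox1* (log2 4.26), and 0 of 3 on day 3. The part of these lists in the member values was not tested. *Eomes* was at 24.7 in *T* KO cells and 9.81 in WT on day 2, and at 4.83 and 19.6 on day 3.

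The dKO removes both T-box factors. *Hand1* was at 2.81 FPKM on day 2 (135 fragments), 2.66-fold below the lower WT library, and was the single member above the minimum and DE (log2 −1.63), against 7.99% of genes. On day 3 it was at 31.0 (1237 fragments), 1.26-fold above the higher WT library and short of the threshold (log2 0.60). *Isl1* was at 0.453 on day 2 (29 fragments), 2.19-fold above the nearer WT library, and at 0.113 on day 3 (6 fragments), 7.50-fold below the nearer. Its ratio of day 3 to day 2 was 0.249 in the dKO and 11.8 in WT. *Pdgfra* was at 0.427 on day 3, 2.74-fold below the nearer WT library, and *Foxf1* at 1.63 (83 fragments), 1.41-fold above the higher. By the DE rule *Isl1* and *Pdgfra* were lower and *Foxf1* higher, 3 of 4 members above the minimum, against 11.0% of genes, and against library a alone *Pdgfra* was the single DE member. *Isl1* and *Pdgfra* passed the minimum only through WT and *Foxf1* only through the KO, so the count is not comparable with that share.

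Limma gave *Hand1* −1.58 on day 2 in the dKO (−2.48 to −0.68, adjusted p = 0.566), *Isl1* −2.64 on day 3 (−4.87 to −0.41, adjusted p = 0.466) and *Pdgfra* −1.77 on day 3 (−3.76 to 0.22, adjusted p = 0.557). It called 0.0163% of genes on day 2 and 0.0894% on day 3, with no member among them. *Gata4* was at 0.347 on day 2 (30 fragments), above 0.170 and 0.165 in WT, and at 0.405 on day 3 (29 fragments), below 0.678 and 0.611. *Gata6* was at 0.136 on day 2 (11 fragments), above both WT libraries, and at 0.372 on day 3 (25 fragments), between them. On day 2 *Pdgfra* (0.169) lay between the WT libraries and *Foxf1* (0.293, 18 fragments) was 1.26-fold above the nearer. *Gata4* was thus 15.7-fold below the nearer WT library in the *T* KO and 1.51-fold in the dKO on the same day, and the difference between the lines was not tested. *Mef2c* lay between the WT libraries on both days, *Nkx2-5* had 0 and 4 fragments and *Hand2* 3 and 1. *Ttr* was at 0.614 on day 2 and 1.21 on day 3, and the sums of the endoderm, trophoblast and amnion, and fibroblast lists were 95.6, 376 and 3.93 on day 2 and 246, 2128 and 8.56 on day 3.

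In the dKO, 1 of 11 programme genes was lower and 2 were higher on day 2, and 4 of 14 were lower and 1 higher on day 3. *Mesp1* was again listed at 0 on day 3 beside 5.65 in WT, and *Fgf8* was at 10.5 and 57.4. Among neuroectoderm genes above the minimum, 3 of 5 were DE on day 2, 2 higher and 1 lower, and 2 of 5 on day 3, both higher. *Pax6* had log2 ratios of 5.40 on day 2 and 6.37 on day 3, and *Sox1* of 4.69 and 5.03. Their part in the member values was not tested. The median log2 ratio over the 9 members was 0.61 on day 2 and 0.0065 on day 3, beside −0.0081 and −0.031 over all genes above the minimum. The day 2 median was again the value of *Hand2*, from 3 fragments in the KO and none in WT. The 6 comparisons of the 3 lines share their WT libraries day by day, so that a high or low WT library shifts all lines together.

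**Figure D4:**
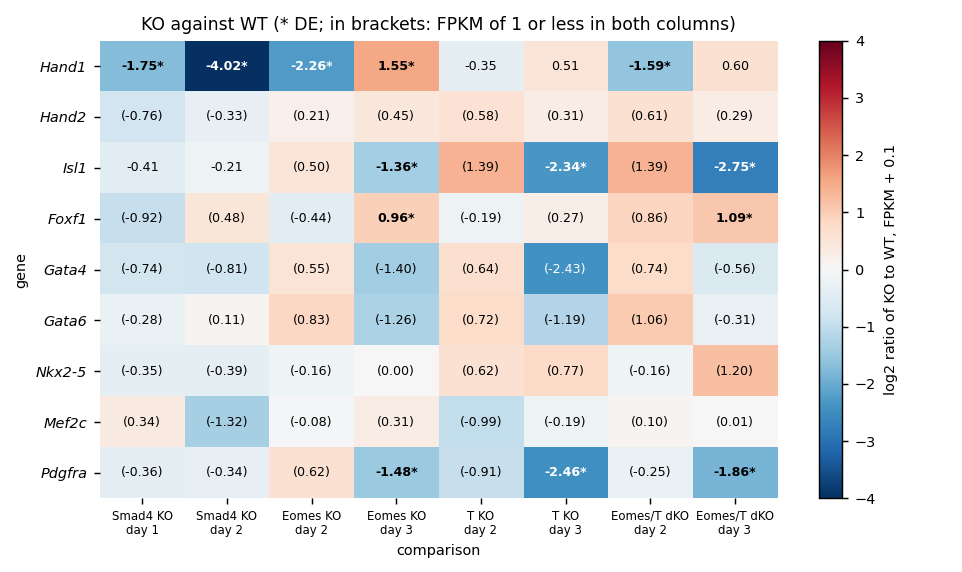
Log2 ratios of KO to WT (FPKM + 0.1, colour scale) of the 9 members in 8 comparisons. Stars mark DE, judged without the pseudocount, and brackets mark genes at FPKM of 1 or less in both columns. *Hand1* carried stars in 5 comparisons, *Isl1* and *Pdgfra* in the 3 of day 3, and *Foxf1* in 2.

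Across the KO lines the members fell into different patterns. In order of level over the 10 F1G4 conditions, *Hand1* was highest in *Eomes* KO cells on day 3 (60.2), followed by the dKO (31.0), the *T* KO (29.3) and WT (20.5) on that day, then WT (8.66), the *T* KO (6.80), the dKO (2.81) and the *Eomes* KO (1.73) on day 2, and WT on day 1 (1.18) and in the ES state (0.121). The dKO and *T* KO of day 3 lay closer together than the WT libraries of that day, which spanned 16.4 to 24.6. *Isl1* was highest in WT on day 3 (1.31) and lay between 0.111 and 0.456 in the other conditions. *Pdgfra* was highest in WT on day 3 (1.80), followed by *Eomes* KO cells on that day (0.584). *Foxf1* was highest in the dKO (1.63) and *Eomes* KO (1.47) on day 3, followed by the *T* KO (0.884) and WT (0.716), and the WT libraries of day 3 (1.15 and 0.281) spanned the *T* KO.

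From day 2 to day 3, *Hand1* went up 2.37-fold in WT, 34.9-fold in the *Eomes* KO, 4.30-fold in the *T* KO and 11.0-fold in the dKO. *Foxf1* went up 6.17-fold, 25.0-fold, 10.0-fold and 5.55-fold in the same order. *Pdgfra* went up 8.12-fold in WT but 1.48-fold, 3.42-fold and 2.53-fold in the KO lines. *Gata4* went up 3.84-fold in WT, with ratios of day 3 to day 2 of 0.628, 0.124 and 1.17 in the KO lines, and *Isl1* 11.8-fold in WT, with ratios of 2.28, 0.400 and 0.249. The test of a difference between days is the change of the limma difference from day 2 to day 3, which called 0% of genes in the *Eomes* KO (1346 at an unadjusted p under 0.05), 0.00813% in the *T* KO and 0.0163% in the dKO, with no member among them.

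As a description over 10 conditions, which share lines and days, the log2 levels of *Hand1* and *Foxf1* correlated at r = 0.87, those of *Hand1* and *Isl1* at 0.18 and those of *Isl1* and *Pdgfra* at 0.53. Among 9148 genes at FPKM 5 or above in at least 1 condition, *Igf2* (r = 0.99) and *Cdcp1* (0.99) were among the most like *Hand1*. *Arhgap29* (0.97), *Epm2aip1* (0.96) and *Dpf3* (0.96) were most like *Foxf1*, *Dennd2a* (0.92), *Plod2* (0.91) and *Gpc3* (0.91) most like *Pdgfra*, and *Hist2h2ab* (0.86), *Cacul1* (0.81) and *Mesp1* (0.78) most like *Isl1*.

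*Pdgfra* was DE on day 3 in the 3 KO lines made from F1G4, and the other PDGF genes were not. Of *Pdgfa*, *Pdgfb*, *Pdgfc*, *Pdgfd* and *Pdgfrb*, 0 were DE on day 3 in any of these lines, with 4 or 5 of the 5 above the minimum. The WT libraries of that day themselves differed beyond 2-fold on *Pdgfa*, *Pdgfb* and *Pdgfc*. On day 2 *Pdgfc* (log2 −1.32) and *Pdgfb* (−1.24) were DE and lower in the *Eomes* KO. *Pdgfc* was lower in the dKO (−1.38) and *Pdgfa* higher in the *T* KO (1.61) on that day. In the WT time course, where *Pdgfra* was DE as well, 2 of the 5 were DE and higher on day 3 against day 2, *Pdgfrb* with a log2 ratio of 2.64 and *Pdgfb* with 1.25. *Pdgfrb*, the second PDGF receptor gene, was at 5.56 FPKM in the *Eomes* KO, 3.08 in the *T* KO and 1.57 in the dKO on day 3, beside 2.77 and 3.03 in WT. Of 14 family members of the 9 genes, 7 or 8 were above the minimum and at most 1 was DE in any comparison of KO and WT, against 4.77 to 16.4% of all genes, *Gata2* being the one in *Smad4* KO cells (log2 −3.51 and −3.75 on days 1 and 2), *Mef2d* in the *T* KO on day 2 (1.09) and *Mef2b* in the dKO on day 3 (−1.55).

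**Figure D5:**
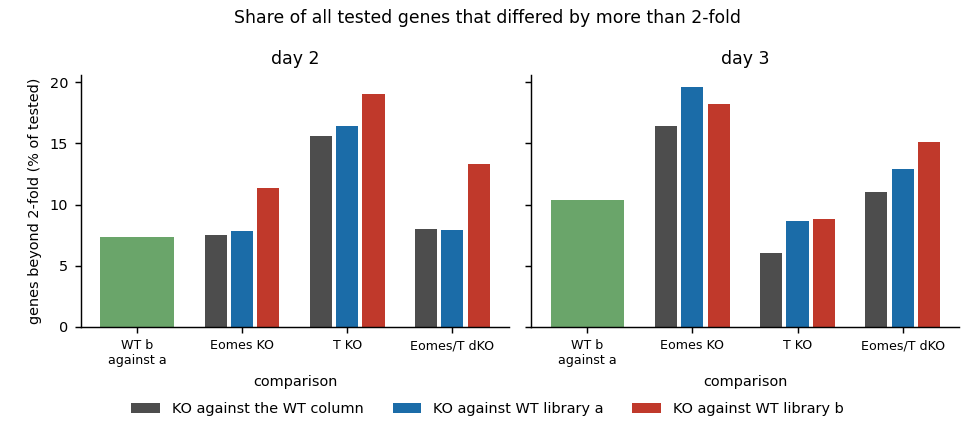
Percent of genes tested that differed beyond 2-fold between the WT libraries of a day (green) and between each KO library and the WT column (dark grey), WT library a (blue) or b (red), on days 2 and 3. The WT libraries of day 3 differed for 10.4% of genes, more than *T* KO cells did from the WT column (6.04%) and less than *Eomes* KO cells did (16.4%).

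The spread of the WT libraries sets how firmly these differences can be read. The share of genes beyond 2-fold between the WT libraries, 7.32% on day 2 and 10.4% on day 3, was close to that of *Eomes* KO (7.52%) and dKO cells (7.99%) on day 2 and above that of *T* KO cells on day 3 (6.04%), a column that averages 2 libraries being itself less variable than a single one. With either WT library left out, *Hand1* in the *Eomes* KO and the dKO on day 2, *Hand1* in the *Eomes* KO on day 3 and *Pdgfra* in all 3 lines on day 3 kept their DE calls, whereas *Isl1* and *Foxf1* lost theirs without library b. Against library a of day 3 alone, *Foxf1* had a log2 ratio of 0.35 in the *Eomes* KO and 0.50 in the dKO. *Isl1* had −0.91 in the *Eomes* KO, −2.25 in the *T* KO and −2.91 in the dKO, with library a at 0.847, so that the calls in the *T* KO and the dKO fell on the FPKM minimum and not on the ratio.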

How the data were processed

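RNA of 18 samples was sequenced as strand-specific ScriptSeq v2 libraries, paired-end with 50 bases, from 100 ng of total RNA and with 15 PCR cycles. The authors trimmed reads with cutadapt 2.9, aligned them with HISAT2 2.1.0 to mm10, processed alignments with SAMtools 1.9 and computed FPKM with Cuffdiff 2.2.1 on the refSeq annotation. The deposited FPKM values, 20 columns in 9 tables scaled separately, were used as they stand. 

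DE needed FPKM above 1 in either column and a log2 ratio beyond 1, without a pseudocount. The recovery of whole fragments, the separation of WT libraries and limma came after the data were seen. In single-library columns 91.0 to 92.3% of single-transcript genes under 20 fragments were whole within 0.02. In the separated WT libraries of days 2 and 3, 95.2 and 95.0% were whole within 0.1. KO values were brought to the time-course scale by the WT column of their table. Limma had a mean-variance trend and Benjamini-Hochberg adjustment. The steps were tested on simulated data, in which 0.138 and 0.230% of unchanged genes passed the DE rule on days 2 and 3. The simulated libraries varied less than the real WT pairs, so this bears on the recovery of fragments and not on the error of the DE or limma calls.

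The members and lists were chosen with earlier results of these data known. Named genes were the members, the targeted genes, the 2 DE genes with the largest ratio of each list and the 3 genes most like each member. Some results under this rule are not reported here. *Mixl1*, *Ttr*, *Sparc*, *Sox17*, *Foxa2*, *Col4a1*, *Dab2*, *Plac1*, *Tfap2a*, *Cga*, *Elf5*, *Pdgfrb*, *Pdgfb*, and *Eomes*, *T* and *Mesp1* in other places, were chosen after their values were seen. Tools were limma 3.58.1 in R 4.3.3, and matplotlib 3.10.9, scipy 1.17.1, pandas 2.3.3 and numpy 2.4.6 in Python 3.11.15.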

Additional observations from a re-analysis of the deposited data

Results flagged for a closer look

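Among the 9 genes in the 3 KO lines made from F1G4, 11 combinations of gene and line had a KO library outside both WT libraries on days 2 and 3 but on opposite sides. How often other genes did the same was not counted. The 3 lines also share the WT libraries of each day, so the count is not read as a trait of these genes. In 6 of the 11 combinations the gene was above FPKM 1 in at least 1 of the 10 libraries, and the 5 of *Gata4* and *Gata6* stayed under it. These pairs are described by 1 KO library per day, and the difference between days was tested with limma. *Hand1* in *Eomes* KO cells had log2 ratios of −2.33 on day 2 and 1.56 on day 3, with a limma difference between days of 3.83 (95% confidence interval 2.56 to 5.10, adjusted p = 0.357). *Hand1* in the dKO had −1.63 and 0.60, with a limma interval of 0.93 to 3.47 (adjusted p = 1.00), and in *T* KO cells −0.35 and 0.51, with a limma difference of 0.87 (−0.40 to 2.14, adjusted p = 0.675). *Isl1* ran the other way, with 2.02 and −2.88 in *T* KO cells (limma −3.80, −6.95 to −0.65, adjusted p = 0.449) and 2.04 and −3.53 in the dKO (limma −4.20, −7.35 to −1.05, adjusted p = 1.00). *Pdgfra* in *Eomes* KO cells had 0.84 and −1.63 (limma −2.11, −4.92 to 0.71, adjusted p = 0.533). *Gata4* had 0.80 and −1.81 in *Eomes* KO cells (limma −1.94, −2.82 to −1.06, adjusted p = 0.226), 0.91 and −4.05 in *T* KO cells (limma −3.05, −3.93 to −2.17, adjusted p = 0.105) and 1.05 and −0.67 in the dKO (limma −1.30, −2.18 to −0.42, adjusted p = 0.679). *Gata6*, of few fragments, had 3.01 and −1.72 in *Eomes* KO cells (limma −1.98, −4.59 to 0.64, adjusted p = 0.477) and 2.75 and −1.62 in *T* KO cells (limma −1.79, −4.41 to 0.82, adjusted p = 0.592). None of the 11 passed the correction, over 12304 genes for *Hand1*, *Isl1* and *Pdgfra* and over 16432 genes above 0.1 FPKM for *Gata4* and *Gata6*. The day 2 *Isl1* values rest on 21 and 29 fragments in the KO libraries and 1 and 13 in WT.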

How the results depend on the processing

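Alternatives that use the recovered libraries (limma, and 1 WT library left out) were chosen after seeing the data, and the cause of each change below was not tested beyond what the alternative itself alters. A pseudocount of 0.1, and scaling of the columns to a median ratio of 1, left the number of DE members in every comparison within 1.5 times. With a pseudocount of 1 there were 0 DE members in *Smad4* KO cells on day 1, 1 in each of the 3 F1G4 KO lines on day 3, and 0 on day 1 against the ES state. The share of all genes called ranged from 1.57 to 22.9% over the comparisons. Without an FPKM minimum, which admits genes of few fragments, there were 6 and 6 in *Smad4* KO cells on days 1 and 2, 4 and 7 for the *Eomes* KO, 6 and 6 for the *T* KO and 7 and 5 for the dKO on days 2 and 3. Along the time course there were 7, 5 and 8 step by step and 6 for day 3 against the ES state, and 4 and 6 between the WT lines on days 1 and 2. The share of all genes called without the minimum was 21.8 and 21.9% in *Smad4* KO cells, 23.2 to 32.9% in the lines made from F1G4 and up to 45.3% between WT stages. With FPKM above 5, there were 0 in *Smad4* KO cells on both days, 1 in *Eomes* KO and 0 in *T* KO and dKO cells on day 3, 0 on day 1 against the ES state, 1 on day 3 against day 2 and 1 against the ES state, and 0 and 1 between the WT lines. All genes were then called at shares of 1.60 to 24.6%. Rescaled to TPM, there were 1 and 4 in *T* KO cells on days 2 and 3, 6 on day 3 against day 2 and 6 against the ES state, with 7.05 to 34.3% of all genes called over the comparisons. Limma with either filter called 0 members in *Eomes* KO and dKO cells on days 2 and 3, in *T* KO cells on day 3 and between WT days 3 and 2. Leaving out 1 WT library gave 2 to 4 members for the *Eomes* KO, 1 to 2 for the *T* KO and 1 to 3 for the dKO of day 3, and 2 to 3 on day 3 against day 2. Of 236 log2 ratios of single members under both pseudocounts, TPM and median scaling, 13 gained or lost a DE call. Examples are *Hand1* in *Smad4* KO cells on day 1 (−0.96 with a pseudocount of 1) and *Foxf1* in *Eomes* KO cells on day 3 (0.96 with a pseudocount of 0.1). No ratio of a DE member changed direction, and changes of direction among ratios that were not DE were not counted. Against 1 WT library, 9 of 79 member ratios turned, none of them DE, such as *Foxf1* in *T* KO cells on day 3 (0.31 to −0.38 against a), *Gata6* in the dKO on day 3 (−0.38 to 0.46 against a), *Isl1* in *Eomes* KO cells on day 2 (0.84 to −0.07 against b) and *Pdgfra* in the dKO on day 2 (−0.39 to 0.64 against a). No paired analysis was possible because the columns carry no replicate numbers and each KO condition has 1 library. In *T* KO cells on day 2 limma called 127 genes of 12304 and 264 of 16432 with the lower filter, beside 1775 by the DE rule, and in every other line and day it called at most 11. Depth limits *Hand2*, *Nkx2-5* and *Gata6*, which rest on a few fragments in most libraries.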

Other observations

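In the ES state *Isl1* had 14 and 5 fragments in the WT libraries a and b and *Hand1* 0 and 10, while *Hand2*, *Gata6* and *Nkx2-5* had none in either. On day 1 *Isl1* had 13 and 42 fragments (0.200 and 0.712 FPKM) and *Foxf1* 2 and 16 (0.0320 and 0.282 FPKM), so both differed between libraries of unmodified cells at a stage before the comparisons of the F1G4 KO lines begin. *Hand2*, *Gata6* and *Nkx2-5* had 3, 3 and 2 fragments on day 1, all in library a. *Isl1* was thus present at a low level before differentiation and uneven between libraries on days 1, 2 and 3. On day 3 the primitive streak gene *Mixl1* was at 21.7 and 9.53 FPKM and *Eomes* at 25.3 and 13.6 in libraries a and b, higher in the library with less *Isl1*, *Gata6* and *Pdgfra*, and on day 2 *Mixl1* was at 0.618 and 1.63 and *T* at 28.1 and 59.0, higher in the library with more *Isl1* and *Pdgfra*, whereas *Eomes* was at 10.4 and 8.56, higher in the other. With 2 libraries a day these are values only.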
